A study of Homo sapiens and synthetic construct with 52 samples.

Results

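NF1 and LZTR1, a pair of brakes on the small GTPase RAS, were examined together with 8 further genes that restrain RAS and ERK signalling (CUL3, SPRED1, SPRED2, RASA1, RASA2, RASA3, DUSP6 and SPRY2). The 10 genes were chosen by symbol from a genome-wide CRISPRi library of 18788 genes, with the dasatinib results of these data already known. All 10 were found, with 55 of the 103074 guides, arranged as 11 promoter sets of 5 guides. RASA1 has separate sets for its promoters, written RASA1 P1 and RASA1 P2, and each other gene has 1 set. Guides are numbered within a gene in order of the coordinate in their name.

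The study counted guides in K562, a chronic myeloid leukaemia line that carries the BCR-ABL1 fusion kinase, made to express dCas9-KRAB and used as a sorted pool rather than a clone. The same guides were delivered as a recloned library (LGR) and as the publicly distributed version (legacy). LGR survival screens compared cells before (T0) and after 7 days of growth (Tf). They were run at 1000-fold coverage (1 T0 and 3 Tf samples) and at 100-fold coverage (2 T0 and 4 Tf samples). Dasatinib screens in each library, at 100-fold coverage, had 2 T0, 2 DMSO (0.01%) and 2 dasatinib samples (0.75 nM, treated for 72 hours and then grown for 6 days). Each library was infected once for the dasatinib screens and then split, so the samples of a group are technical replicates. The p-values of single guides measure only the spread between such samples. Those of promoter sets compare the guides of a set with non-targeting guides and do not measure the spread between samples. All cells carry the same dCas9-KRAB construct, including controls. Guide counts hold no RNA, so neither the cell identity nor the degree of silencing of a target could be checked from them.

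RAS switches on the RAF, MEK and ERK kinases when it binds GTP. Neurofibromin (NF1) and the RASA proteins speed its return to the GDP-bound state, and SPRED1 and SPRED2 bring neurofibromin to the membrane. LZTR1 is a substrate adaptor of the ubiquitin ligase built on CUL3 and directs RAS proteins to degradation. DUSP6 removes activating phosphates from ERK, and SPRY2 is a feedback inhibitor of receptor tyrosine kinase signalling. BCR-ABL1 feeds this pathway through GRB2, SOS and GAB2, and dasatinib inhibits that kinase.

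NF1 and LZTR1 guides multiplied under dasatinib in both libraries. By count rank among the 103074 guides, the 10 guides of this pair stood at 2 to 1630 in the first and 2 to 285 in the second LGR dasatinib sample. In the legacy samples 9 of them stood at 1 to 59 and at 1 to 112, and LZTR1 guide 5 stood at 11219 and 6747. Their summed abundance was 34.8 and 25.2 CPM (counts scaled to a common library total) for NF1 at T0 in the LGR library, 26.1 and 20.3 CPM in DMSO, and 959 and 888 CPM in dasatinib. LZTR1 guides summed to 52.5 and 53.5 CPM at T0, 51.1 and 52.6 CPM in DMSO, and 1443 and 1584 CPM in dasatinib. In the legacy library NF1 went from 55.9 and 52.7 CPM at T0 through 34.4 and 30.4 CPM in DMSO to 1839 and 1838 CPM in dasatinib. LZTR1 went from 54.7 and 56.4 CPM through 38.9 and 39.9 CPM to 1402 and 1429 CPM. Every dasatinib sample therefore stood above every T0 and DMSO sample for both genes. Together the 10 guides of this pair took 0.24% and 0.247% of all counts in the LGR dasatinib samples and 0.324% and 0.327% in the legacy ones, against 0.00704% to 0.00772% in the 4 DMSO samples. Of the 20 guides of highest count, 7 or 8 were members in each of the 4 dasatinib samples.

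The promoters of NF1 and LZTR1 are printed because both sets of guides were designed to promoters and moved together under dasatinib. The 250 bases before each start site were taken from RefSeq (GRCh38.p14, plus strand for both), and capitals mark each CG, which reads the same on both strands. NF1 lies at chr17:31094727-31094976 and LZTR1 at chr22:20982047-20982296.
NF1: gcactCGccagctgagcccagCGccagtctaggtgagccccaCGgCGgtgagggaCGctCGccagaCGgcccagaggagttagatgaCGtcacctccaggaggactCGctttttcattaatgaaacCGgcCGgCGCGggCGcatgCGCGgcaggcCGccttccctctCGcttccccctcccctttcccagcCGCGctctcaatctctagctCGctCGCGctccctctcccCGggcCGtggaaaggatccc
LZTR1: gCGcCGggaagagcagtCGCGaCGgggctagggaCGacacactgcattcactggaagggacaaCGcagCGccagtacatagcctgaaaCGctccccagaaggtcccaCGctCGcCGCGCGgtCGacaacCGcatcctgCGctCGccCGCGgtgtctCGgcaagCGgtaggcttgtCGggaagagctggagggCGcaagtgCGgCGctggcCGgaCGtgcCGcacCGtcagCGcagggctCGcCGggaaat
The NF1 window held 25 CG and the LZTR1 window 33, and G or C made up 67.2% and 68.4% of the bases. Among 35116 RefSeq promoter windows of the same length, the median was 11 CG and 93.9% held at least 1. As many CG as in NF1 were found in 21.6% of the windows, and as many as in LZTR1 in 8.15%. These counts describe the windows and say nothing about a factor or about guide activity. Guide names use hg19 coordinates, so guides were not placed on these windows.

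On hg19, the coordinates in the NF1 guide names run from 29421971 to 29422451, those of LZTR1 from 21336611 to 21337026 and those of CUL3 from 225449675 to 225450000. Several guides of a set lie almost on top of each other and are not independent: LZTR1 guides 1 and 2 are 4 bases apart on opposite strands, and all 5 guides of RASA1 P2 lie within 25 bases. The RASA1 P2 set offers in effect 1 target region, and the set of SPRED1 spans 791 bases.

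Sample totals were 15739255 to 19844033 counts in the dasatinib screens, 47678549 to 54678272 in the 100-fold survival screen and 105684438 to 111002750 in the 1000-fold one. In the LGR plasmid pool the 55 member guides stood at 0.447 to 1.48 times the mean count of a guide. In the legacy plasmid pool they stood at 0.0732 to 2.27 times the mean, with SPRED1 guide 1 lowest and DUSP6 guide 4 highest. SPRED1 guides 1, 2 and 3 had 121, 365 and 136 counts there, against a mean of 1653. All 55 member guides passed the filter of 10 counts in at least 1 sample in the LGR comparisons, and 54 did in the legacy ones, where SPRED1 guide 1 was left out.

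Under dasatinib, NF1 guides 1 to 3 were the strongest in the LGR library. Guide 1 had 169 and 77 counts at T0, 72 and 77 in DMSO and 6876 and 7655 in dasatinib. Guide 2 had 118 and 68 at T0, 50 and 38 in DMSO, and 4379 and 1555 in dasatinib. Guide 3 had 133 and 136, then 107 and 73, then 2684 and 2655. For each of these guides the DMSO counts were at or below the lower T0 count, and the dasatinib counts were far above both. Guide 4 counted 189 and 100 at T0, 146 and 122 in DMSO and 976 and 794 in dasatinib. Guide 5 counted 81 and 71, then 59 and 41, then 482 and 1752, so its dasatinib samples lay further apart than those of guides 1, 3 and 4. After the median of the non-targeting guides was subtracted, the ratio to DMSO ran from 7.81-fold for guide 4 to 115-fold for guide 1.

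In the legacy library the same 5 guides rose again and guide 1 again led. It had 339 and 327 counts at T0, 151 and 156 in DMSO and 16018 and 21271 in dasatinib, where it was the most abundant of all guides in both samples. Guide 2 had 146 and 133, then 100 and 61, then 3828 and 4344. Guide 3 went from 188 and 161 through 166 and 126 to 3542 and 2588. None of these guides had a dasatinib count near its DMSO counts. Guide 4 moved from 206 and 158 through 144 and 97 to 2193 and 1188, the smallest rise of the set at 15.6-fold. Guide 5 moved from 157 and 161 through 39 and 84 to 3361 and 2982, a rise of 63.0-fold. By mean ratio guide 1 was first and guide 4 last in both libraries, while guide 5 stood below guide 3 in LGR and above guide 2 in legacy. Single samples differed: guide 2 stood above guide 1 in the first LGR dasatinib sample. In the second samples guide 5 stood above guide 3 in LGR and below guide 2 in legacy.

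LZTR1 showed the same pattern with less spread among its first 4 guides. In the LGR library guide 1 counted 192 and 202 at T0, 98 and 93 in DMSO and 3785 and 4838 in dasatinib. Guide 2 counted 210 and 189, then 172 and 215, then 6002 and 6249. Guide 3 counted 183 and 200, then 160 and 132, then 5168 and 4382. Only guide 1 of these was clearly lower in DMSO than at T0, and all were far higher in dasatinib. Guide 4 went from 210 and 152 through 178 and 167 to 6682 and 8457. Guide 5 went from 246 and 218 through 240 and 302 to 1529 and 1791. The rise was 37.7- to 53.1-fold for guides 1 to 4 and 7.28-fold for guide 5.

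Legacy counts of LZTR1 were more uneven at the start, as its guide 3 was abundant and guide 2 rare. Guide 1 had 216 and 164 at T0, 51 and 63 in DMSO and 4939 and 4596 in dasatinib. Guide 2 had 38 and 63, then 70 and 33, then 1245 and 1343. Guide 3 had 432 and 399, then 284 and 336, then 12694 and 14653. These starting levels differed by several-fold, yet the ratios to DMSO were 95.8-, 30.6- and 50.3-fold. Guide 4 had 123 and 139, then 73 and 69, then 2882 and 4177. Guide 5 had 205 and 241, then 202 and 186, then 300 and 401, a ratio of only 2.04-fold. By mean ratio the order of the 5 LZTR1 guides was the same in both libraries (1, 4, 3, 2 and 5). Single samples kept only guide 1 as first and guide 5 as last. Guide 2 stood above guide 3 in the second LGR dasatinib sample (log2 ratios of 5.27 and 5.16). Guide 3 stood above guide 4 in the first legacy one (5.62 and 5.61).

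**Figure D1:**
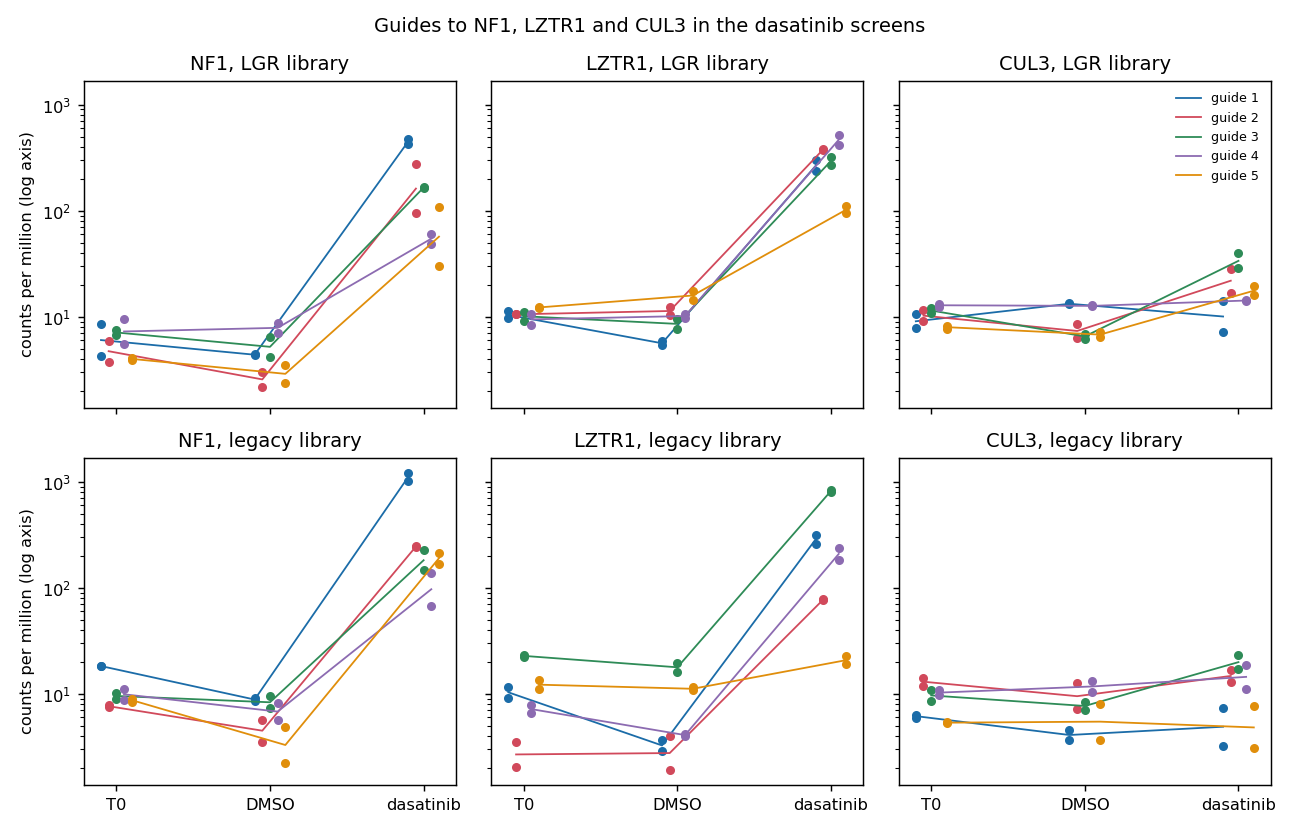
CPM (log axis) of each guide to NF1, LZTR1 and CUL3 at T0, in DMSO and in dasatinib, for the LGR (top) and legacy (bottom) libraries, with 2 samples a group as points and lines through their geometric means. All NF1 and LZTR1 guides were above their DMSO samples in dasatinib. Their ratios ran from 2.04-fold (LZTR1 guide 5) to 137-fold (NF1 guide 1), both in the legacy library. CUL3 guides ran from 0.855- to 5.81-fold in LGR and from 0.965- to 2.83-fold in legacy.

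CUL3, the scaffold that LZTR1 works with, stood higher under dasatinib by less. LGR counts of guide 3 were 238 and 197 at T0, 103 and 119 in DMSO and 636 and 465 in dasatinib. Guide 2 counted 230 and 163, then 105 and 148, then 270 and 463. Guide 5 counted 164 and 139, then 107 and 124, then 256 and 316. For these the dasatinib samples exceeded both DMSO samples, by 5.81-, 3.36- and 2.92-fold. Guide 4 also lay above both, by only 1.27-fold, with 263 and 224 at T0, 208 and 222 in DMSO and 230 and 230 in dasatinib. Guide 1, which lies 266 bases from its nearest neighbour in the set, had 210 and 140, then 224 and 226, then 226 and 117, and its groups overlapped.

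Legacy counts of CUL3 told less. Guide 3 had 158 and 196 at T0, 122 and 146 in DMSO and 268 and 411 in dasatinib, which made it first in this library too, at 2.83-fold. Guide 2 had 222 and 253, then 125 and 218, then 203 and 298. Guide 1 had 118 and 107, then 79 and 64, then 51 and 131. In this set guides 2 and 3 stood above both DMSO samples by their share of the library, and guides 1, 4 and 5 overlapped. Guide 4 counted 200 and 175, then 231 and 180, then 298 and 195. Guide 5 counted 100 and 95, then 141 and 64, then 120 and 54.

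The weakest guide of LZTR1 and that of NF1 lay far from the first guide of their set, which is a description of values that chose the genes. LZTR1 guide 5, the weakest in both libraries, lies 415 bases from guide 1, while guides 1 to 4 lie within 62 bases and did not order by position. NF1 guide 4, the weakest in both libraries, lies 433 bases from guide 1, but guide 5 is farther still, at 480 bases, and stood at 22.1- and 63.0-fold. For CUL3 the first guide was the weakest by mean ratio in LGR and guide 5 in legacy. The direction of each gene on these coordinates was not used, and the guides of a set share their target gene.

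**Figure D2:**
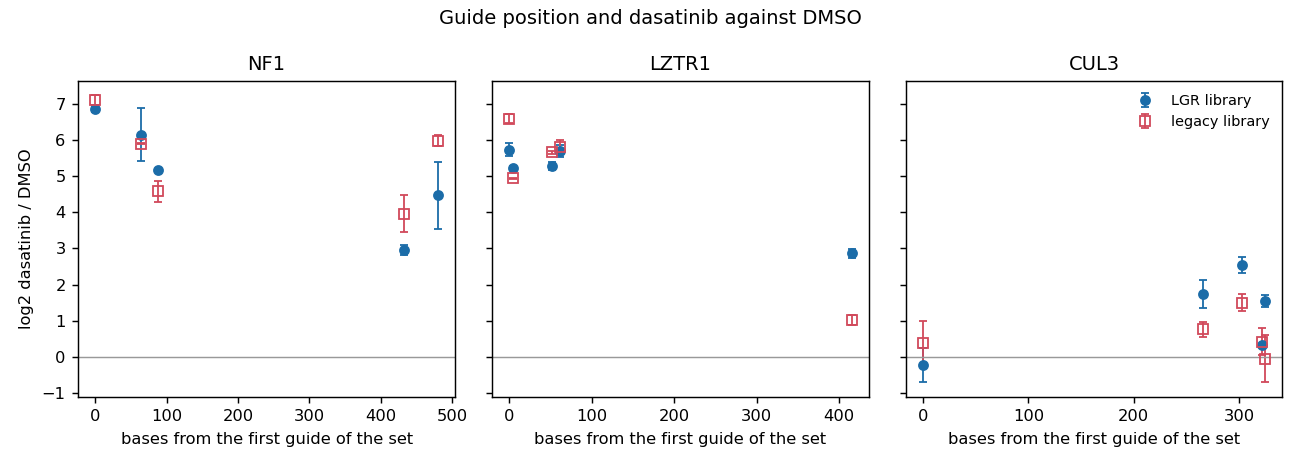
Log2 ratio of dasatinib to DMSO (vertical axis) against the distance in bases from the first guide of the set (horizontal axis) for NF1, LZTR1 and CUL3, with the mean of 2 dasatinib samples as a point and both samples as the ends of the bar. In the LZTR1 panel the 4 guides within 62 bases lie above the guide at 415 bases in both libraries.

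The gene phenotype used here is the mean log2 ratio of the 3 strongest guides of a set, each relative to the median of the non-targeting guides. Each treated sample was set against the mean of the control arm, so the SD leaves out the spread of the control samples. The 3 guides were picked on the mean over samples and kept for every sample, so the SD also leaves out changes in that pick. Dasatinib against DMSO is given as a description without a test, since the genes were chosen with it known. For NF1 it was 6.06 ± 0.31 (SD, n = 2) in the LGR library, the 3rd highest of 19391 scored sets, and 6.32 in each of the legacy samples, the highest of 19085. For LZTR1 it was 5.57 ± 0.12 (SD, n = 2), ranking 4th, and 6.01 ± 0.05 (SD, n = 2), ranking 2nd. The CUL3 phenotype was 1.95 ± 0.16 (SD, n = 2) in LGR, ranking 121st, and 0.89 ± 0.03 (SD, n = 2) in legacy, ranking 838th. The median of all sets was 0.02 in LGR and -0.01 in legacy.

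Among the GTPase-activating proteins, RASA3 was the next highest. It stood at 1.54 ± 0.06 (SD, n = 2) in LGR, ranking 228th, and 2.02 ± 0.50 (SD, n = 2) in legacy, ranking 104th. The legacy value rested on guide 2, whose counts were 82 and 120 at T0, 10 and 8 in DMSO and 70 and 174 in dasatinib. Without this guide, an alternative chosen after seeing the data, the legacy phenotype was 1.03, and the LGR value stayed at 1.54. In the LGR library guide 2 counted 160 and 125 at T0, 112 and 122 in DMSO and 113 and 109 in dasatinib, so its groups overlapped there. RASA3 guide 1 stood below both DMSO samples in LGR (0.762-fold) and above both in legacy (1.38-fold). Guides 3, 4 and 5 stood above both DMSO samples in both libraries, at 2.89-, 2.24- and 3.77-fold in LGR and 1.81-, 2.22- and 2.15-fold in legacy.

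RASA1 and RASA2 did not share this rise. RASA1 P1 stood at -0.10 ± 0.35 and 0.05 ± 0.08 and RASA1 P2 at 0.16 ± 0.32 and -0.18 ± 0.09 (SD, n = 2 each, LGR then legacy). RASA2 stood at 0.50 ± 0.38 (SD, n = 2) in LGR, with 4 of its guides passing the count filter, and at -0.29 ± 0.25 (SD, n = 2) in legacy. Its guides pointed different ways in both libraries. Guides 1 and 2 stood above the DMSO samples, at 1.97- and 2.60-fold in LGR and 1.68- and 1.53-fold in legacy. Guide 5 stood below them, with 119 and 238 counts in DMSO against 66 and 91 in dasatinib in LGR, and 68 and 83 against 18 and 11 in legacy.

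The SPRED proteins, which act through neurofibromin, showed no rise shared by the guides of a set. SPRED1 had a phenotype of 1.25 ± 0.21 (SD, n = 2) in LGR, which rested on guide 2 with 104 and 42 counts in DMSO and 268 and 523 in dasatinib. Without that guide, again an alternative chosen after seeing the data, the value was 0.28. In the legacy library SPRED1 had no phenotype, as only 2 of its guides passed the filter. Its guide 2 counted 25 and 12 in DMSO and 37 and 32 in dasatinib, and guide 3 counted 12 and 13 in DMSO and 0 in both dasatinib samples. A count of 0 allows up to 3 counts, so guide 3 was at least 3.997-fold lower in CPM over the group. SPRED2 stood at 0.20 ± 0.07 and 0.50 ± 0.33 (SD, n = 2 each, LGR then legacy). Without the first LGR dasatinib sample, and with the 3 strongest guides picked anew, the SPRED2 value was -0.23. Its sign in that library thus depends on 1 sample, which the SD does not show.

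Neither feedback inhibitor stood above 0 by more than its SD in both libraries. SPRY2 stood at 1.05 ± 0.84 (SD, n = 2) in LGR, where the samples were 0.46 and 1.65, and at -0.18 ± 0.21 (SD, n = 2) in legacy. DUSP6 stood at -0.39 ± 0.06 (SD, n = 2) in LGR and 0.05 ± 0.67 (SD, n = 2) in legacy. The LGR value of DUSP6 came mainly from guide 1, with 137 and 58 counts in DMSO and 17 and 12 in dasatinib. In legacy that guide had 293 and 285 counts in DMSO and 135 and 254 in dasatinib. No test of the difference between libraries was run under dasatinib, since these values chose the genes.

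**Figure D3:**
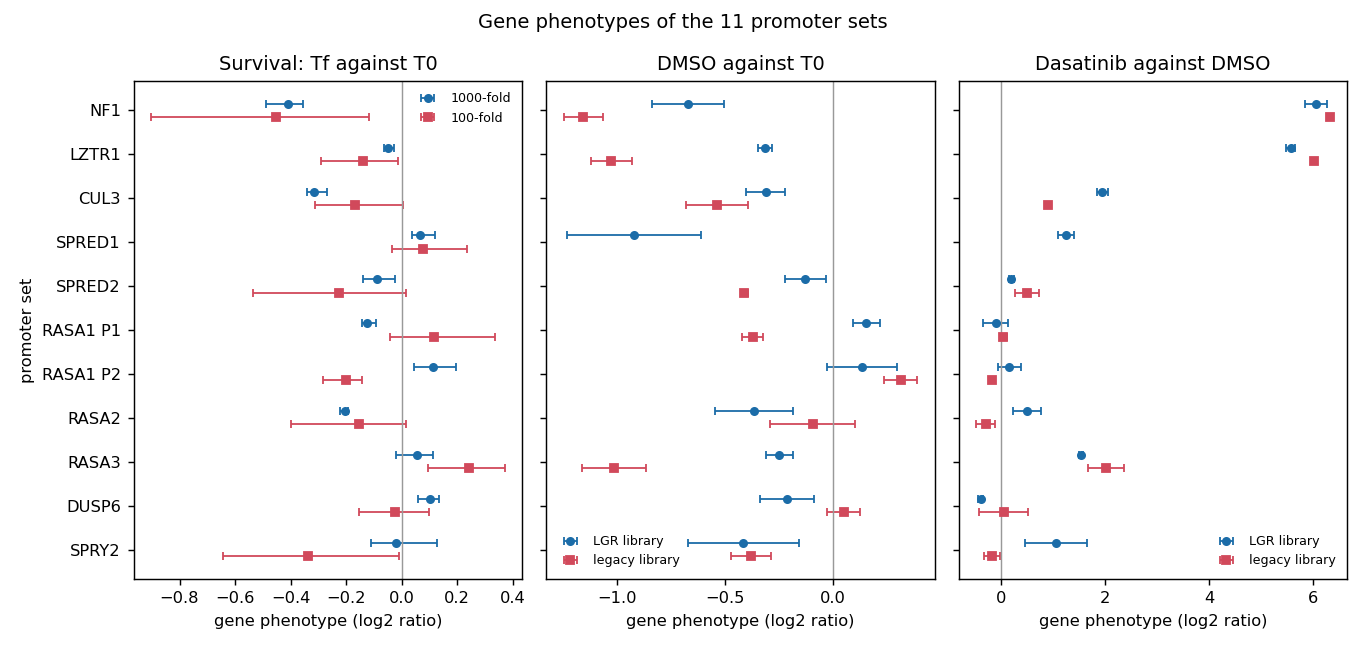
Gene phenotype (log2 ratio, horizontal axes of different range) of the 11 promoter sets in the survival screens, in DMSO against T0 and in dasatinib against DMSO, with the mean as a point and the lowest and highest sample as the ends of the bar. NF1 and LZTR1 lie between 5.57 and 6.32 in the right panel, CUL3 and RASA3 between 0.89 and 2.02, and SPRED1 has no legacy value.

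Counted over single guides, 25 of 55 member guides had both LGR dasatinib samples above both DMSO samples and 5 had both below. Over all 101701 guides of that comparison the shares were 16.1% above and 29.8% below. In the legacy library 22 of 54 member guides were above and 8 below, against 16.8% and 29.2% of all 100304 guides. NF1 and LZTR1 gave 10 of the members above in each library. The RASA3 set gave 3 in LGR and 5 in legacy, and the CUL3 set 4 and 2. These counts follow from how the genes were chosen, and nothing is read from them. Duplicates also varied more under the drug: chi-square per guide between duplicates was 29.1 (LGR) and 22.1 (legacy) for dasatinib, against 6.91 and 6.73 for DMSO. The part of this spread in single guide values was not tested.

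**Figure D4:**
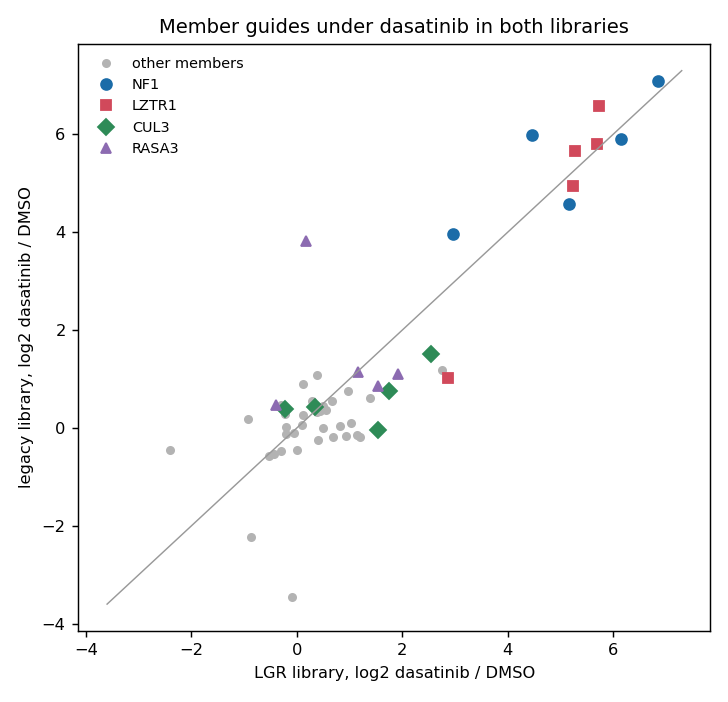
Log2 ratio of dasatinib to DMSO of the 54 member guides counted in both the LGR (horizontal) and legacy (vertical) libraries, each the mean of 2 dasatinib samples with a count of 0 set to 1, and the line of equal values. NF1 guides and LZTR1 guides 1 to 4 lie between 2.96 and 7.10 in both libraries, and RASA3 guide 2 stands apart at 0.17 in LGR and 3.81 in legacy.

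DMSO against T0 asks what the same guides did without the drug. Its DMSO samples are those of the dasatinib comparison, which was known when the genes were chosen. A low DMSO count raises the ratio there and lowers the ratio here, so the p-values below are not free of that choice. NF1 guides fell in the legacy library, where the phenotype was -1.15 ± 0.13 (SD, n = 2). That set was the only member called by the gene score (adjusted p = 0.001 by an exact, two-sided Mann-Whitney test that sets its guides beside the non-targeting ones, Benjamini-Hochberg adjusted over all sets), where 5.21% of all sets were called lower. The call was lost without the second legacy DMSO sample, where the phenotype was -1.25. In LGR the NF1 phenotype was -0.67 ± 0.23 (SD, n = 2; adjusted p = 0.0768 by the same exact test), where 5.69% of all sets were called lower. None of the 11 member sets was called there, and 1 had an unadjusted p under 0.05. No share over all sets or guides is given for such unadjusted counts, here or below, and nothing is read from them. LZTR1 stood at -1.02 ± 0.13 (SD, n = 2; adjusted p = 0.109 by the exact test) in legacy and -0.32 ± 0.05 (SD, n = 2; adjusted p = 0.928 by the exact test) in LGR. NF1 was called in LGR without the first DMSO sample (-0.94) or without T0 sample B (-0.95), and LZTR1 in legacy without the first DMSO sample (-1.02) or without T0 sample A (-0.99).

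Guide tests over all guides (edgeR's quasi-likelihood test, Benjamini-Hochberg adjustment) called 4 of 54 member guides lower in legacy and none higher, against 6.88% and 0.619% of all guides. LZTR1 guide 1 changed by a log2 value of -1.67 ± 0.30 (SE; edgeR adjusted p = 0.00018). NF1 guide 1 changed by -1.06 ± 0.21 (SE; edgeR adjusted p = 0.000478) and guide 5 by -1.31 ± 0.34 (SE; edgeR adjusted p = 0.00952). RASA3 guide 2 changed by -3.42 ± 0.53 (SE; edgeR adjusted p = 1.76e-05), while the other RASA3 guides lay between -0.09 and 0.33. Without guide 2 the legacy RASA3 phenotype went from -1.01 to 0.21. The share of member guides called lower, 4 of 54, was near the share among all guides. At an unadjusted p under 0.05 there were 10 member guides. DESeq2 called 4 lower and 1 higher, against 7132 and 884 of all 101655 guides.

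In the LGR library 3 of 55 member guides were called lower and none higher, against 7.42% and 0.535% of all guides. LZTR1 guide 1 was among them again, at -0.90 ± 0.27 (SE; edgeR adjusted p = 0.033). CUL3 guide 3 changed by -0.82 ± 0.25 (SE; edgeR adjusted p = 0.0395), and SPRY2 guide 5 by -1.27 ± 0.35 (SE; edgeR adjusted p = 0.018). At an unadjusted p under 0.05 there were 8. DESeq2 called 3 lower and 0 higher, against 7609 and 855 of all 102903 guides. The edgeR calls changed when 1 T0 or 1 DMSO sample was left out, among the members and among all guides. Such fits leave 1 sample in that group, so nothing is read from them. SPRY2 guide 5 counted 140 and 126 at T0 against 57 and 42 in DMSO. In legacy the same guide had 264 and 307 at T0 and 208 and 204 in DMSO. SPRED1 guide 1 counted 154 and 97 at T0 and 59 and 47 in DMSO in LGR. It changed by -1.08 ± 0.36 (SE, edgeR adjusted p = 0.0641) and did not pass the adjusted threshold. Its legacy counts were 6 and 6 at T0 and 0 in both DMSO samples.

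Only 1 member guide differed between the libraries in DMSO against T0, by edgeR's interaction test over 101583 guides, of which 0.152% differed. It was RASA3 guide 2, lower in legacy than in LGR by a log2 difference of -3.24 ± 0.57 (SE; edgeR adjusted p = 0.0149). The call was lost without LGR T0 sample A, LGR T0 sample B or legacy T0 sample B. NF1 guides differed by -0.81 to 0.28 and LZTR1 guides by -0.87 to 0.02, and none of them passed (lowest edgeR adjusted p of 0.691 and 0.482). The libraries were thus not shown to differ for NF1 or LZTR1 without the drug.

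Survival screens share no sample with the dasatinib screens. At 1000-fold coverage NF1 guide 1 had 747 counts at T0 and 668, 568 and 704 at Tf. Guide 2 had 566 at T0 and 373, 323 and 444 at Tf. Guide 5 had 430 at T0 and 385, 395 and 328 at Tf. Guides 1, 2 and 5 were thus below the 1 T0 sample in all 3 Tf samples, and the spread at T0 is not known here. Guide 3 had 687 at T0 and 718, 801 and 682 at Tf, and guide 4 had 855 and then 915, 920 and 1130. Guide 2 came nearest to the threshold, at -0.62 ± 0.21 (SE; edgeR adjusted p = 0.0555).

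LZTR1 was close to flat at 1000-fold coverage. Guide 1 counted 944 at T0 and 942, 833 and 909 at Tf, and guide 2 counted 923 and then 1100, 1179 and 1067. Guide 3 counted 1105 and then 895, 1022 and 1116. Neither direction was shared by the guides. Guide 4 counted 1043 and then 1118, 923 and 1108, and guide 5 counted 1097 and then 1086, 1105 and 1053. The LZTR1 phenotype was -0.05 ± 0.02 (SD, n = 3; adjusted p = 0.797 by the exact Mann-Whitney test).

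CUL3 guides leaned downward at 1000-fold coverage. Guide 2 had 1096 at T0 and 898, 826 and 861 at Tf, a change of -0.39 ± 0.13 (SE; edgeR adjusted p = 0.0388). Guide 3 had 1230 and then 1123, 1016 and 1069, guide 4 had 1494 and then 1443, 1311 and 1450, and guide 5 had 902 and then 761, 788 and 822. In these the Tf samples were all below the 1 T0 sample, though library totals differ slightly. Guide 1 had 1050 and then 1096, 1025 and 1264. The set had a phenotype of -0.32 ± 0.04 (SD, n = 3) and was not called (adjusted p = 0.0959 by the exact test).

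Over the 1000-fold screen 2 of 55 member guides were called lower and none higher, against 9.07% and 1.08% of all guides. At an unadjusted p under 0.05 there were 5, and the number called by edgeR changed when the second Tf sample was left out. DESeq2 called 2 lower and 0 higher, against 9386 and 1637 of all 103002 guides. RASA2 guide 4 was the other one, with 555 counts at T0 and 315, 310 and 365 at Tf (-0.79 ± 0.23, SE; edgeR adjusted p = 0.0142). At 100-fold coverage the same guide had 196 and 357 at T0 and 141, 323, 248 and 227 at Tf. In the dasatinib screens it had 57 and 62 at T0 and 27 and 71 in DMSO in LGR, and 110 and 128 then 55 and 118 in legacy. None of the 11 member sets was called by the gene score, which called 7.17% of all sets lower, and 1 had an unadjusted p under 0.05. NF1 had the lowest member phenotype, at -0.41 ± 0.07 (SD, n = 3; adjusted p = 0.555 by the exact test).

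At 100-fold coverage the NF1 guides spread more widely between samples. NF1 guide 1 had 401 and 479 counts at T0 and 223, 331, 558 and 328 at Tf, and guide 2 had 136 and 171 and then 74, 143, 130 and 185. Guide 3 had 369 and 407 and then 281, 354, 363 and 276. Guides 1 and 2 thus overlapped their T0 samples, whereas all Tf counts of guide 3 were below both. Guide 4 had 280 and 423 and then 439, 506, 375 and 488, and guide 5 had 214 and 224 and then 106, 254, 203 and 275. The NF1 phenotype was -0.45 ± 0.33 (SD, n = 4; adjusted p = 0.294 by the exact test).

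LZTR1 guide 1 had 663 and 597 counts at T0 and 486, 357, 433 and 506 at Tf at this coverage, lower in every sample (-0.58 ± 0.24, SE; edgeR adjusted p = 0.279). Guide 2 had 568 and 456 and then 560, 611, 666 and 589, and guide 3 had 394 and 478 and then 441, 589, 460 and 541. Guide 4 had 445 and 537 and then 336, 574, 664 and 865, and guide 5 had 426 and 503 and then 618, 540, 595 and 497. Guide 1 was the one LZTR1 guide called lower in DMSO in both libraries, and here it did not pass. The LZTR1 phenotype was -0.14 ± 0.13 (SD, n = 4; adjusted p = 0.965 by the exact test).

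CUL3 guide 1 had 357 and 600 at T0 and 667, 690, 501 and 905 at Tf, and guide 2 had 514 and 574 and then 594, 675, 626 and 765. Guide 3 had 556 and 456 and then 563, 477, 425 and 289. Guide 4 had 742 and 712 and then 533, 587, 615 and 506, all below T0, and guide 5 had 300 and 480 and then 321, 467, 450 and 371. Guide 2, called lower at 1000-fold coverage, was above both T0 counts here in all 4 samples. None of the 55 member guides was called by edgeR at 100-fold coverage in either direction, against 5.68% lower and 0.0437% higher of all guides. At an unadjusted p under 0.05 there were 4. DESeq2 called 0, against 6239 lower and 609 higher of all 102997 guides. None of the 11 sets was called, 1 had an unadjusted p under 0.05, and 6.61% of all sets were called lower. Between the coverages no member guide differed by edgeR's interaction test, as was so for 0% of all 103002 guides. Of the members 1 had an unadjusted p under 0.05, and DESeq2 called 0, against 1 lower and 9 higher of all 103002 guides.

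Among the remaining members RASA2 guide 4 was the one guide called in these screens. RASA1 guide 1 had the lowest p of its gene at 100-fold coverage, with 338 and 256 at T0 and 406, 415, 632 and 845 at Tf (0.85 ± 0.31, SE; edgeR adjusted p = 0.153). At 1000-fold coverage it had 699 at T0 and 638, 646 and 845 at Tf, and in the dasatinib screens 104 and 137 at T0 and 154 and 195 in DMSO in LGR, and 155 and 182 then 127 and 118 in legacy. No direction was common to these. DUSP6 guide 1 had 767 and then 861, 810 and 838 at 1000-fold coverage and 256 and 392 and then 315, 363, 391 and 395 at 100-fold. It had 212 and 190 at T0 and 293 and 285 in DMSO in legacy (0.58 ± 0.20, SE; edgeR adjusted p = 0.0832). SPRED2 guide 4 had 978 and then 1156, 1008 and 1360, and 356 and 419 and then 449, 534, 424 and 452. Its legacy counts were 210 and 168 at T0 and 124 and 130 in DMSO, without passing the test (edgeR adjusted p = 0.325).

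RASA3 guide 2, which dropped in the legacy DMSO samples, had 982 counts at T0 and 919, 862 and 939 at Tf at 1000-fold coverage. At 100-fold it had 429 and 439 and then 495, 536, 306 and 379. SPRY2 guide 5 had 763 and then 758, 650 and 844, and 429 and 400 and then 342, 530, 229 and 548. SPRED1 guide 1 had 602 and then 536, 601 and 542, and 217 and 267 and then 257, 347, 255 and 409. None of the guides called lower in DMSO in either library was called in the survival screens. Growth lasted 7 days in the survival screens and 9 days in the DMSO samples, so these comparisons are unlike in time. Over the member sets the median phenotype was -0.05 at 1000-fold and -0.15 at 100-fold, beside -0.05 and -0.10 over all sets. In DMSO against T0, whose DMSO samples the choice of genes drew on, it was -0.31 in LGR and -0.39 in legacy, beside -0.10 and -0.11.

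Relatives of the members were taken from a list of 15 further RAS brakes, among them the RASAL, SPRY and DUSP families. None of its 17 sets was called by the gene score in any of the 4 tested comparisons, and 0 to 2 had an unadjusted p under 0.05. Under dasatinib their phenotypes ran from -0.81 to 1.13 in LGR and from -0.51 to 1.16 in legacy. All lay below those of NF1 and LZTR1, which were chosen with such values known, so nothing is read from that. The highest lay above SPRY2 in LGR (1.05) and CUL3 in legacy (0.89), and below RASA3 in both libraries. Of the 21 genes that carry the signal from RAS activation to ERK, 3 of 24 sets fell at 1000-fold coverage (7.17% of all sets), 4 of 24 at 100-fold (6.61%), 4 of 24 in LGR DMSO (5.69%) and 1 of 23 in legacy DMSO (5.21%), and none was called higher. GAB2, an adaptor that BCR-ABL1 phosphorylates, led with -1.53 ± 0.05 (SD, n = 3) at 1000-fold, -2.44 ± 0.44 (SD, n = 4) at 100-fold and -3.34 ± 0.58 (SD, n = 2) in LGR DMSO, and it had too few guides for a score in legacy DMSO. PTPN11, a phosphatase that promotes RAS activation, fell by 0.79 and 1.54 in the survival screens, and stood at -2.53 and -0.98 in LGR and legacy DMSO without being called. SOS1, an exchange factor that loads RAS with GTP, fell by 0.65 and 1.23 in the survival screens, 2.08 in LGR DMSO and 1.26 in legacy DMSO. Under dasatinib the scored sets from RAS activation to ERK ran from -1.40 to 1.70 in LGR (22 sets) and from -0.97 to 1.56 in legacy (23 sets).

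The machinery of cullin-3 ligases gave 7 of 20 sets lower at 1000-fold (7.17% of all sets), 5 of 20 at 100-fold (6.61%), 6 of 19 in LGR DMSO (5.69%) and 8 of 20 in legacy DMSO (5.21%). NEDD8, the ubiquitin-like protein that activates cullins, stood at -4.97 ± 1.13 (SD, n = 3) and -5.84 ± 0.95 (SD, n = 4) in the survival screens and at -4.29 ± 0.83 (SD, n = 2) in legacy DMSO. UBA3, a subunit of its activating enzyme, stood at -4.61 ± 0.14 (SD, n = 3), -4.96 ± 1.10 (SD, n = 4) and -4.03 ± 1.05 (SD, n = 2, LGR DMSO), and at -3.51 ± 1.08 (SD, n = 2) in legacy DMSO. COPS6, a subunit of the signalosome that removes NEDD8, stood at -4.64 in DMSO in both libraries, at -3.64 at 100-fold coverage and, without being called, at -2.82 at 1000-fold. These genes serve all cullins, and CUL3 itself stood at -0.31 and -0.54 in DMSO. Under dasatinib fewer sets of this machinery had enough guides for a score, 16 in LGR and 14 in legacy. Those ran from -0.26 to 1.98 in LGR and from -0.21 to 2.24 in legacy. The highest of them lay above CUL3 and RASA3 in both libraries.

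By distance over the 6 phenotypes among 18909 sets scored in all of them, NF1 and LZTR1 were each other's nearest set, 0.84 apart on the log2 scale. The distance includes the dasatinib values that chose the genes, so it is a description and supports nothing. For NF1 the next were CCNC (2.54), KDM1A (3.03), GFI1B (3.20) and WDR82 (3.52), and for LZTR1 they were CCNC (2.65), KDM1A (2.90), WDR82 (3.43) and MED23 (3.45). CCNC, cyclin C of the Mediator kinase module, stood at 4.83 and 4.88 under dasatinib but at -1.66 and -1.41 in DMSO. KDM1A, a histone demethylase, stood at 4.80 and 3.86 under dasatinib and at -1.71 and -1.03 in DMSO. GFI1B, a transcriptional repressor that acts in erythroid and megakaryocytic development, stood at 6.23 and 5.71 and at -2.96 and -2.39.

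Relative to the plasmid pools NF1 guides stood lower in LGR cells than in legacy cells. The median of its 5 guides relative to the plasmid pool and to non-targeting guides was below 0 in all 13 LGR samples taken at T0 or in the transduction titration (10-, 50-, 100- and 200-fold coverage), from -0.87 to -0.17. In the 10 legacy samples it was below 0 in 1, from -0.07 to 0.27. LZTR1 was below 0 in 6 of 13 and 4 of 10, and CUL3 in 7 of 13 and 7 of 10. Each library was set against 1 plasmid reading, titled HiSeq for LGR and NextSeq for legacy, so no test was made and the plasmid reading and the cells cannot be told apart. A NextSeq reading of the LGR plasmid numbers its guides without naming them and was not used here. The LGR reading used is titled CRISPRi and lists the CRISPRi guides, although another of its labels says CRISPRa. In the 10-fold titration NF1 guide 2 had 0 of 24508035 counts in 1 LGR sample, which allows up to 0.122 CPM, and 134 in the other. SPRED1 guide 1 had 0 in both legacy samples at that coverage.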

How the data were processed

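Guide counts were deposited by the authors as raw counts per sgRNA, made with ScreenProcessing after bcl2fastq, with guide names on hg19 per the submitters' processing notes, and 40 samples were read. Members and lists were chosen with earlier results of these data known. Guides were tested with edgeR 4.0.16 in R 4.3.3 (quasi-likelihood, TMM, at least 10 counts in 1 sample, Benjamini-Hochberg over all guides, threshold 0.05), with DESeq2 1.42.0 as an alternative. Gene phenotypes used guides with a mean of at least 50 counts in either arm, a count of 0 set to 1, the log2 CPM ratio minus the non-targeting median, and the mean of the 3 strongest guides of sets with at least 3. Dasatinib against DMSO was not tested. Named guides were, for each further gene, the guide of lowest p. Other alternatives changed the scaling, the count minimum, the replicate block or left out 1 sample. Scripts were tested on simulated data. Sets of pilot guide sequences were not used here. Intervals, floors and the p-values of single guides cover counting and technical spread only. The p-values of promoter sets cover no spread between samples.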

Additional observations from a re-analysis of the deposited data

Results flagged for a closer look

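RASA3 guide 2 differed between the libraries in DMSO against T0, by a log2 difference of -3.24 (legacy minus LGR) in edgeR's interaction test. Its legacy counts were 82 and 120 at T0 and 10 and 8 in DMSO, and its LGR counts were 160 and 125 at T0 and 112 and 122 in DMSO. The other 4 guides of the set differed by 0.10 to 0.65 and none passed the test.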

How the results depend on the processing

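Of the alternatives for counts of member guides or sets, 115 stayed within 1.5 times the count reported and 21 did not. With total counts in place of TMM, 1 member guide was lower at 1000-fold coverage, as were 8697 of all 103002. In legacy DMSO 1 was higher, as were 695 of all 101655. DESeq2 and the fit without a count filter also gave 1 higher in legacy DMSO, against 884 of 101655 and 659 of 102256 guides. Leaving out 1 sample at a time gave 1 to 2 lower at 1000-fold coverage, 0 to 6 lower and 0 to 2 higher in LGR DMSO, 0 to 1 higher in legacy DMSO and 0 to 1 that differed between the libraries. It gave 0 to 1 sets called by the gene score in LGR DMSO and 0 to 2 in legacy DMSO. The SPRED2 phenotype under dasatinib in LGR, 0.20, was -0.23 without the first dasatinib sample and 0.58 without the second. Same-numbered samples did not deviate together (correlations of 0.0017, -0.00133 and 0.00185), so their numbers were not taken as pairs. With a replicate block the member guides below DMSO in both pairs became 8 in LGR and 13 in legacy. Comparing only same-numbered samples is a looser rule than asking for no overlap. No share over all guides is given for it, and nothing is read from these counts. The causes of these changes were not tested. Single guides of the dasatinib screens rest on few counts in DMSO, and the spread between duplicates exceeded counting error.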
